A study of Homo sapiens with 17 samples.

Results

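The loci of TTC28, BMS1 and RPAP3 were mapped in Flag ChIP-seq peak lists from U2OS, a human osteosarcoma cell line. These 3 genes were chosen by the FOXA2 lists themselves: each lies at or near one of the strongest peaks found with FOXA2 but not with its C-terminally deleted form, or the reverse. A locus is the RefSeq GRCh38 span of the gene plus 200 kb on each side, and its members are all peaks with a summit there. Of 208775 peaks in the 8 combined lists, 497 were members. Peaks that overlap by at least 1 bp, directly or through a chain of peaks, were merged into a site, which gave 262 sites in the loci of 109722 in all. The TTC28 locus held 351 peaks in 183 sites, the BMS1 locus 111 peaks in 64 sites and the RPAP3 locus 35 peaks in 15 sites.

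Each U2OS line carried 1 Flag-tagged factor on a Tet-on cassette, in which doxycycline switches the transgene on. The 8 factors were FOXA1, FOXA1dCTD, FOXA2, FOXA2dCTD, FOXA3, FOXA3dCTD, SOX2 and SOX2FOXA2CTD. The letters dCTD mark a protein without its C-terminal domain (CTD), and SOX2FOXA2CTD, called the fusion here, joins SOX2 to the CTD of FOXA2. All factor lines were treated with doxycycline for 4 days, at 500 ng/ml by the treatment label (the extraction protocol gives another volume unit for that dose). There were 2 biological replicates of each and 1 input of U2OS. Whether a line is a single clone is not given in the sources used here. The deposited lists hold 1 combined list for each factor, so presence in a list could not be compared between replicates and no test between factors was run. The strength of a peak is the lower of its −log10 p values in both replicates, as the authors' peak caller gave them, and the replicate columns carry no number.

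FOXA1, FOXA2 and FOXA3 are forkhead transcription factors that bind related DNA sequences, and they are known as pioneer factors because they can bind sites in closed chromatin. FOXA proteins act in endoderm and its organs, such as liver and pancreas, and are not characteristic of bone-derived cells. SOX2 is a pioneer factor of the HMG box family. The genes in these loci belong to other processes. TTC28 encodes a large protein with tetratricopeptide repeats, BMS1 encodes a GTPase of the small-subunit processome that matures the small ribosomal subunit, and RPAP3 encodes a subunit of the R2TP complex, which works with the chaperone HSP90 to assemble large protein complexes such as RNA polymerases.

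The promoters of the 3 genes differed in how they were covered by peaks, and their sequences are shown for that reason, with the promoter of ZNF33B, a zinc finger gene of the BMS1 locus whose promoter lay under a FOXA2dCTD peak that FOXA2 lacked. Each sequence runs 5′ to 3′ on the strand of its gene, from 250 bases before the annotated start to 50 after it, and comes from RefSeq in GRCh38. Capitals mark a match to TGTTTNC, a looser form of the forkhead core TGTTTAC that contains it. The SOX core CATTGT was searched as well. All were searched on both strands.

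BMS1 promoter, chr10:42782545-42782844, plus strand: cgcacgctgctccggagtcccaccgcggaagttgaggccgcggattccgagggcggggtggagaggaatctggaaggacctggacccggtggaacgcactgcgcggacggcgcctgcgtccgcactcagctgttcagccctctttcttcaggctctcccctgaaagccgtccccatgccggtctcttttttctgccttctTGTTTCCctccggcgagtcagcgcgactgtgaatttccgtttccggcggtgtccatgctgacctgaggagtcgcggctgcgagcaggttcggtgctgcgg
ZNF33B promoter, chr10:42638521-42638820, minus strand: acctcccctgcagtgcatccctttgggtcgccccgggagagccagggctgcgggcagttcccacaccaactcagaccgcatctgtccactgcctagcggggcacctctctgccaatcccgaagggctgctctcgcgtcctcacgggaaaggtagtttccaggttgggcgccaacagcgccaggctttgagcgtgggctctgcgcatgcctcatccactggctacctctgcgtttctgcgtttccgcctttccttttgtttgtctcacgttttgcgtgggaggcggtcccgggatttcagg
TTC28 promoter, chr22:28679791-28680090, minus strand: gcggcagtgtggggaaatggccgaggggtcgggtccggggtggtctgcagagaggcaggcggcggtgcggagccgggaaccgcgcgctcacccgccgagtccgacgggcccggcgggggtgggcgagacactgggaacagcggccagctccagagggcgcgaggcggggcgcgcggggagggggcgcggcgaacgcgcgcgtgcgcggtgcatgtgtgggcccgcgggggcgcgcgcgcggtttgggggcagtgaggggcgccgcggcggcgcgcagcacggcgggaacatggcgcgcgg
RPAP3 promoter, chr12:47705981-47706280, minus strand: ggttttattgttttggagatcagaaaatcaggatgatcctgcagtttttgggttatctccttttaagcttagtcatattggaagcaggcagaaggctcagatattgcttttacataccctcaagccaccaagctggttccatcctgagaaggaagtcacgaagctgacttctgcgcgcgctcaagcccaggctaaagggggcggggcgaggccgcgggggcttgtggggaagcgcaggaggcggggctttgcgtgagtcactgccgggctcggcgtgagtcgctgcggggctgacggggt

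The BMS1 promoter was overlapped by peaks of 7 of the 8 lists, all except FOXA1dCTD, whose peak at the same site started further into the gene, at chr10:42783115. The FOXA3 row there is a copy of the FOXA3dCTD row. Of 22132 RefSeq promoters of protein-coding genes, 15.9% were overlapped by a peak of at least 1 list, and 6 promoters, or 0.0271%, by peaks of 7 or more. The BMS1 sequence held 1 TGTTTNC match, at position 201 from its 5′ end. That motif is in 15.3% of the promoters, TGTTTAC is in 2.85% and CATTGT in 8.16%. The ZNF33B, TTC28 and RPAP3 windows held no match to any of them.

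No list had a peak over the 5′ promoter of TTC28 or the promoter of RPAP3. The peak nearest to the TTC28 promoter lay 649 bases away, at chr22:28680739-28681405, and came from FOXA2dCTD, with −log10 p values of 4.33 in both replicates. The peak nearest to the RPAP3 promoter was a FOXA1 peak 8771 bases away. Another RefSeq promoter of TTC28, inside the gene span, also had no peak, and the nearest was a fusion peak 457 bases away.

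The lists differ in ways that bear on every count below. The least reproducible peak had an irreproducible discovery rate (IDR, low where a peak ranks high in both replicates) of 0.351 in the FOXA2 list and 0.25 in the FOXA2dCTD list. The corresponding limits of the other lists ran from 0.01 for FOXA3dCTD to 0.920 for the fusion. The best IDR of the FOXA2 list was 0.0137, so 0 of its peaks met an IDR of 0.01, against 6523 of 53415 FOXA2dCTD peaks. Of the 6130 FOXA3 rows, 5012 were identical to rows of the FOXA3dCTD list, and all 19 FOXA3 peaks of the 3 loci were such rows. FOXA3 at full length is therefore counted below as deposited, but has no value of its own in these loci. Depth is unknown for all libraries, and the lists hold no expression values against which the cell line or the transgenes could be checked.

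The peak that marks the TTC28 locus lay inside the gene at chr22:28046185-28048086, with its summit 68.7 kb from the 3′ end of the transcribed span (chr22:27978014-28679840, minus strand). In the FOXA2dCTD list its −log10 p was 38.3 in one replicate and 71.2 in the other, which ranked it 6 of 53415. The 2 replicates both placed it far above the median strength of 2.96 in that list. No FOXA2 peak overlapped it. The nearest FOXA2 peak, chr22:28052492-28053117, began 4.41 kb away and had −log10 p values of 2.32 and 1.71, near the weak end of its list.

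Lists that took no part in the choice also held this TTC28 site. FOXA1 had a peak there with −log10 p values of 71.1 and 43.9, the fourth strongest of 37532. FOXA1dCTD had one with 50.9 and 80.3, at rank 11 of 50539. These summits lay 29 and 1 bases from the FOXA2dCTD summit. FOXA3dCTD had a peak 36 bases away with values of 5.28 and 39.3, so its replicates differed widely and it ranked 6547 of 6813. FOXA3, SOX2 and the fusion had no peak there, and the strength of 5.28 was below 6.15, the lowest strength among the rows that the FOXA3 list shares with FOXA3dCTD. The strongest peak of the TTC28 locus was thus at the same place in the FOXA1, FOXA1dCTD and FOXA2dCTD lists, and the same base pairs were without a FOXA2 peak.

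The peak that marks the BMS1 locus lay upstream of the gene, at chr10:42750544-42751444, 31.9 kb before the start of BMS1 (chr10:42782795-42834937, plus strand). It overlapped LOC283028, a gene that RefSeq lists without a protein product. FOXA2dCTD gave −log10 p values of 22.1 and 31.7, rank 77 of 53415. The nearest FOXA2 peak was 25.1 kb away and had values of 1.92 and 5.34. The site recurred in FOXA1 (13.6 and 9.29, rank 1896), in FOXA1dCTD (14.3 and 41.9, rank 941) and in FOXA3dCTD (6.93 and 24.6, rank 4531). All of these summits were within 28 bases of the FOXA2dCTD summit. The FOXA3 list held the FOXA3dCTD row as a copy, and SOX2 and the fusion had no peak there.

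RPAP3 is the case in the other direction. Its peak was found with FOXA2 and not with FOXA2dCTD, at chr12:47633190-47634775, 27.0 kb beyond the 3′ end of the gene (chr12:47661249-47706030, minus strand) and over no annotated gene. The FOXA2 values were 16.7 and 17.7, rank 56 of 45076. Both replicates thus lay close together, unlike the FOXA1 and FOXA3dCTD replicates at the same site. FOXA1 gave 35.6 and 17.6 at rank 150, FOXA1dCTD 15.2 and 27.4 at rank 732, and FOXA3dCTD 5.11 and 40.6 at rank 6719. The summits lay between 29 and 284 bases from that of FOXA2. The nearest FOXA2dCTD peak was 15.3 kb away, at chr12:47650103-47650849, with values of 2.75 and 3.62. So the site was held by both FOXA1 lists and by FOXA3dCTD, and among the FOXA lists only FOXA2dCTD and FOXA3 had no peak there.

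**Figure D1:**
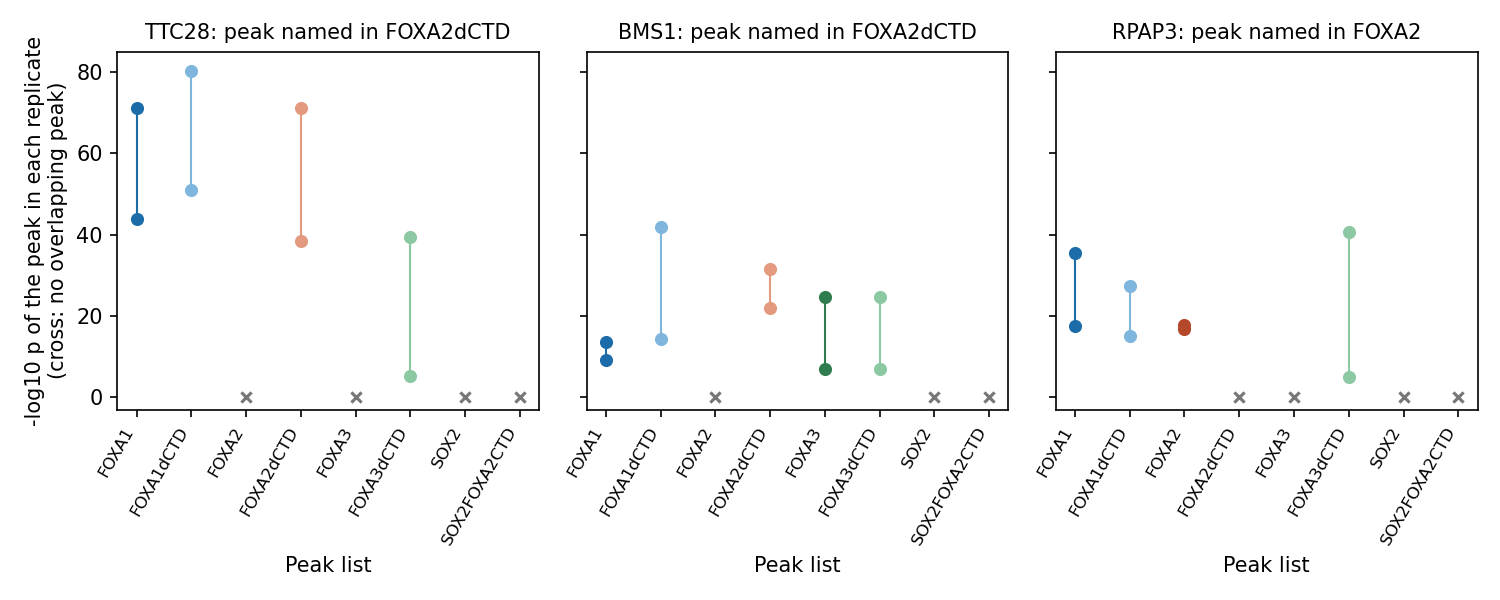
Both replicates' −log10 p (y axis) are plotted for each of the 8 lists (x axis) at the strongest peak of each locus that 1 of the FOXA2 lists lacks. A line joins both replicates of a list and a grey cross marks a list with no overlapping peak. FOXA1, FOXA1dCTD and FOXA3dCTD have a peak at all 3 sites, and the FOXA3 value at BMS1 is a copy of the FOXA3dCTD row.

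These values sit at the top of a graded series, since the loci were chosen from it. Peaks overlapping the FOXA1, FOXA2, FOXA3 or SOX2 gene were left out of the order given here. They were kept in the shares of the next paragraph. Among FOXA2dCTD peaks without a FOXA2 peak on chromosomes 1 to 22 and X, the TTC28 peak was first with a strength of 38.3 and the BMS1 peak second with 22.1. The third, inside LTBP1, had 21.0. Among FOXA2 peaks without a FOXA2dCTD peak, a peak on chromosome 3 nearest to the SOX2 gene was first with 19.3, the RPAP3 peak second with 16.7, and then a peak near TNK2 with 15.0. The step from the BMS1 peak to the peak that follows it was small, and so was the step from the RPAP3 peak to the one near TNK2.

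Recurrence in the FOXA1 lists can be set beside all peaks of the same kind. Of FOXA2dCTD peaks without a FOXA2 peak, 33.0% were overlapped by a FOXA1 or FOXA1dCTD peak, and of FOXA2 peaks without a FOXA2dCTD peak 45.1% were. The share was higher for strong peaks: it was 89.0% (Wilson 95% interval 81.4% to 93.7%) of the 100 strongest of the first kind and 83.0% (74.5% to 89.1%) of the 100 strongest of the second. Peaks held by both FOXA2 lists reached 76.9% and 76.8%. Overlap with at least 1 FOXA1 list, as at the TTC28, BMS1 and RPAP3 peaks, was therefore what most of the 100 strongest showed. The 3 marked peaks were in both FOXA1 lists, as were 56.0% of the 100 strongest of the first kind and 58.0% of the second. They were also in FOXA3dCTD, as were 64.0% of the first kind and 27.0% of the second.

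Most other peaks of the loci that 1 FOXA2 list lacked were weak. In the TTC28 locus 63 of 104 FOXA2dCTD peaks, or 60.6% (Wilson 95% interval 51.0% to 69.4%), had no FOXA2 peak, and genome-wide 56.8% had none. The second strongest of them had a strength of 9.57, a long way under 38.3, and the median was 2.82. In the opposite direction 50 of 89 FOXA2 peaks, or 56.2% (45.8% to 66.0%), had no FOXA2dCTD peak, and genome-wide 48.7% had none. The strongest of these, chr22:28366394-28367597 within TTC28, had −log10 p values of 5.82 and 3.62. With both lists held to the stricter limit of the pair, an IDR of 0.25, the counts without a partner were 72 for FOXA2dCTD and 31 for FOXA2. The peak at chr22:28366394-28367597 recurred in FOXA1dCTD, where the values were 3.62 and 15.1, and in no other list.

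In the BMS1 locus 19 of 30 FOXA2dCTD peaks and 10 of 21 FOXA2 peaks lacked a partner in the other FOXA2 list. The second strongest FOXA2dCTD peak without a partner, strength 9.60, was the one over the ZNF33B promoter, where FOXA1 also had a peak (13.5 and 30.4). The strongest FOXA2 peak without a partner, chr10:43013049-43013671, reached only 2.46 and 3.39, and a FOXA2dCTD peak ended 0.209 kb before it, with values of 13.7 and 8.70. It overlapped no peak of any other list. In the RPAP3 locus 5 of 10 FOXA2 peaks and 1 of 6 FOXA2dCTD peaks lacked a partner, and the second strongest FOXA2 one had a strength of 3.02. These shares rest on few peaks, and the loci were chosen by peaks of this kind. Genome-wide 56.8% of FOXA2dCTD and 48.7% of FOXA2 peaks had no partner. A difference from those values was not tested, since the choice of the loci bears on it.

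Overlap with the FOXA1 lists was also counted for all peaks without a partner. A FOXA1 or FOXA1dCTD peak overlapped 14 of the 63 such FOXA2dCTD peaks at TTC28, 4 of 19 at BMS1 and 0 of 1 at RPAP3. Genome-wide the share of such peaks was the 33.0% given above. For FOXA2 the counts were 16 of 50, 1 of 10 and 4 of 5, with 45.1% genome-wide. No test of these counts was made, since peaks of 1 locus are not replicates.

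The TTC28 locus was dense in peaks. The FOXA2dCTD list had 104 peaks there, or 94.4 per Mb against 17.5 per Mb over chromosomes 1 to 22 and X, and the FOXA2 list had 89, or 80.8 against 14.7 per Mb. Of 19974 protein-coding genes treated in the same way, with windows that often share peaks, 11 had a density at least as high in FOXA2dCTD and 3 in FOXA2, TTC28 included. FOXA1 had 47 peaks there, FOXA1dCTD 51, FOXA3 14, FOXA3dCTD 17, SOX2 1 and the fusion 28. Density exceeded the genome-wide value in all 8 lists, and was 2.01 times that value in SOX2 (1 peak), 2.80 times in FOXA1dCTD, 5.48 times in FOXA2 and 9.81 times in the fusion.

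High density did not stop at the window of the TTC28 locus. In the 1 Mb beyond its lower-coordinate border FOXA2dCTD had 100 peaks and FOXA2 40, and in the 1 Mb beyond the upper border they had 31 and 41. The sites were unevenly spread inside the window too. The 200 kb below the gene, which hold PITPNB (a phosphatidylinositol transfer protein) and part of MN1 (a transcriptional regulator), had 230 sites per Mb, the gene itself 177 and the 200 kb above it 65. Genome-wide there were 35.9 per Mb. The longest stretch without any peak, 46.5 kb, ran from chr22:28634261 to chr22:28680738, across the 5′ end of TTC28.

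**Figure D2:**
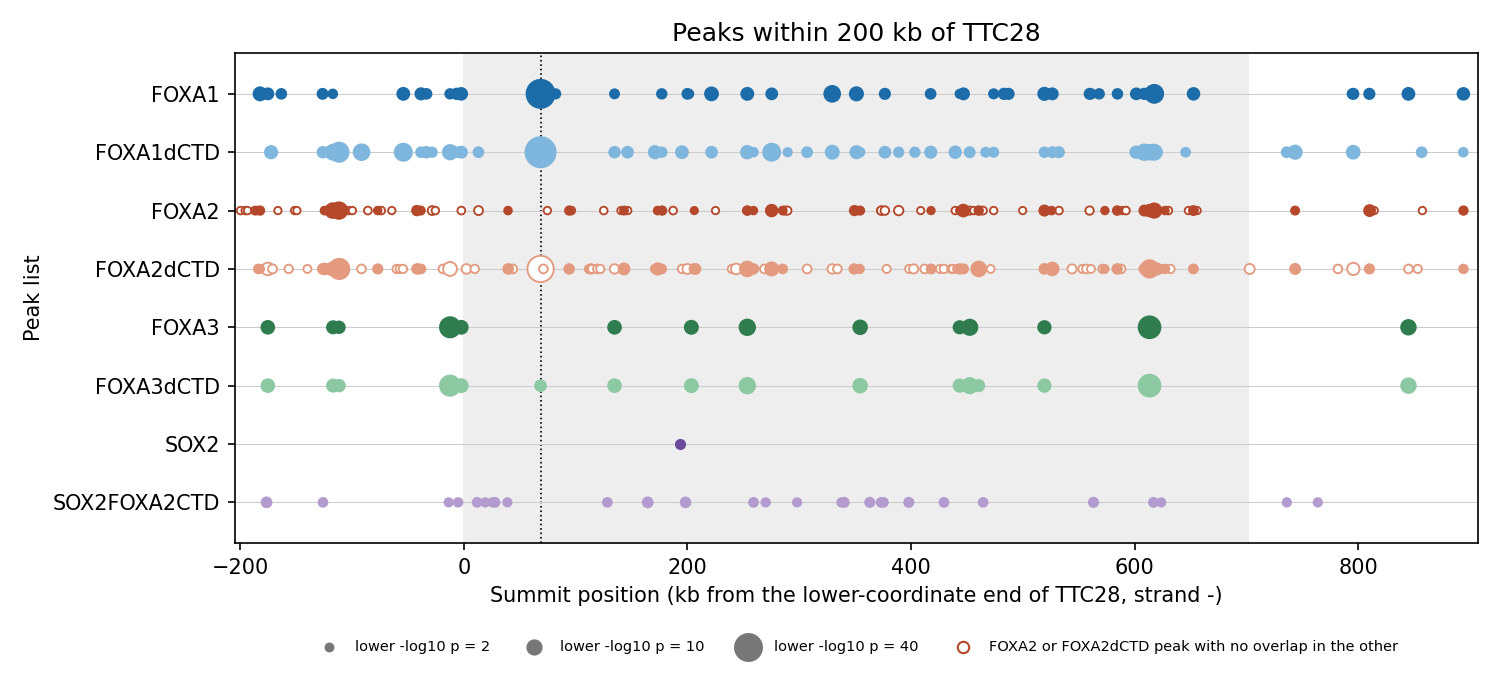
Summits of all 351 peaks of the TTC28 locus are placed by distance in kb from the lower-coordinate end of the gene (x axis) in each list (y axis), with the gene span in grey and a dotted line at the marked peak. Point area grows with strength, and open points are FOXA2 or FOXA2dCTD peaks without a partner in the other list. The marked peak is the largest point in FOXA1, FOXA1dCTD and FOXA2dCTD and has no counterpart in FOXA2.

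BMS1 was dense in most lists as well, and RPAP3 differed between lists. The BMS1 locus had 66.4 FOXA2dCTD and 46.4 FOXA2 peaks per Mb, and 119 and 380 of the 19974 genes had as many or more. In the fusion list it had 28.8 per Mb, 11.1 times the genome-wide 2.59. Beyond the lower and upper borders of its window FOXA2dCTD had 23 and 50 peaks in 1 Mb. The RPAP3 locus had 13.5 FOXA2dCTD peaks per Mb, 0.773 times the genome-wide density, and 22.5 FOXA2 peaks per Mb, 1.53 times that density. The 2 FOXA2 lists thus fell on opposite sides of their genome-wide densities at RPAP3, with 10 peaks against 6. Of the 19974 genes, 4242 had at least as high a density in FOXA2 and 10403 in FOXA2dCTD. Both peak counts are small, and the locus was chosen by a FOXA2 peak. The FOXA3dCTD density at RPAP3, from 3 peaks, was 3.02 times the genome-wide one, beside 2.97 times at BMS1. Over all protein-coding genes 51.3% had more FOXA2dCTD than FOXA2 peaks within 200 kb. The rest had equal counts or more FOXA2 peaks, and these were not counted apart.

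**Figure D3:**
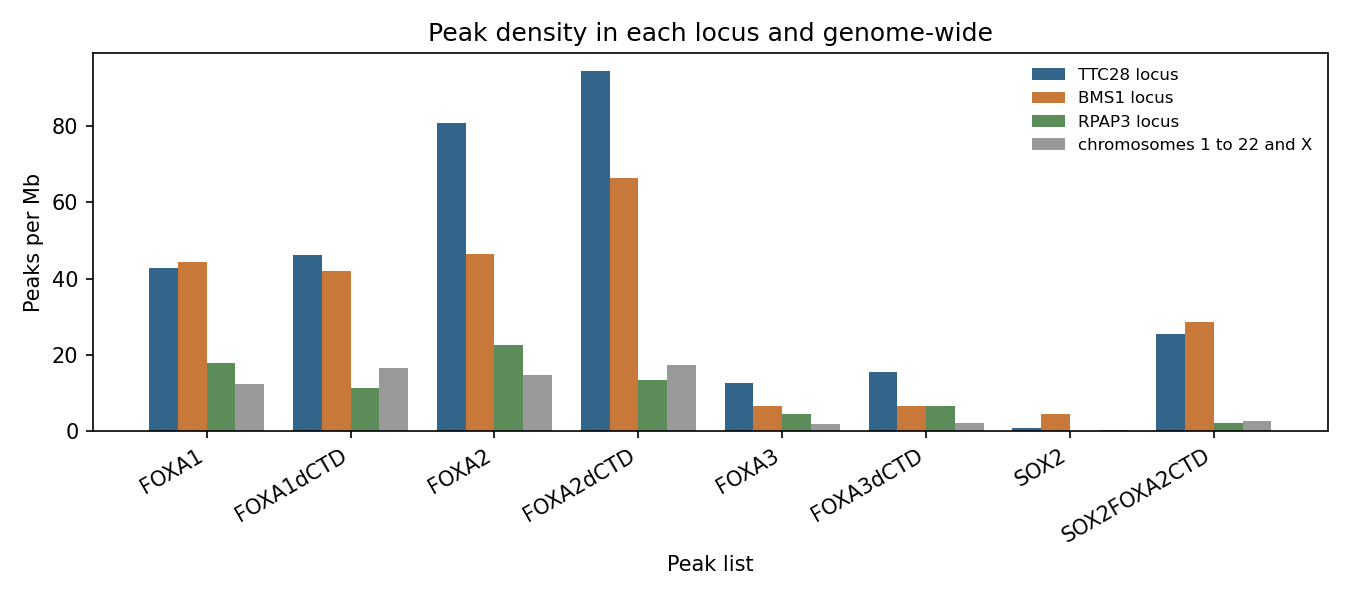
Peaks per Mb (y axis) are given for each of the 8 lists (x axis) in the 3 loci and over chromosomes 1 to 22 and X. TTC28 has the highest bar in FOXA2 (80.8) and FOXA2dCTD (94.4), and the RPAP3 bars of FOXA2 (22.5) and FOXA2dCTD (13.5) lie on either side of the grey genome-wide bars.

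The same sites recurred across lists in every locus. In the TTC28 locus 81 of 183 sites, or 44.3% (Wilson 95% interval 37.3% to 51.5%), were held by 2 or more lists, in the BMS1 locus 20 of 64, or 31.2% (21.2% to 43.4%), and in the RPAP3 locus 10 of 15, or 66.7% (41.7% to 84.8%). Genome-wide the share was 45.6%. The BMS1 interval ended below that value, while the genome-wide value lay within the other 2 intervals. With a window of 100 kb (38.5%, 22.4% to 57.5%) or an IDR of at most 0.01 (46.7%, 24.8% to 69.9%), the BMS1 interval included it. Under the other settings tried, such as a window of 500 kb (34.6%, 26.9% to 43.3%), the BMS1 interval still ended below 45.6%. The genome-wide share itself was not recomputed under other settings. These intervals cover counting error over sites only, and sites of 1 locus are not independent. A site in all 8 lists was rare, with 114 of 108696, or 0.105%, on chromosomes 1 to 22 and X. One of them was in these loci, at the BMS1 start.

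**Figure D4:**
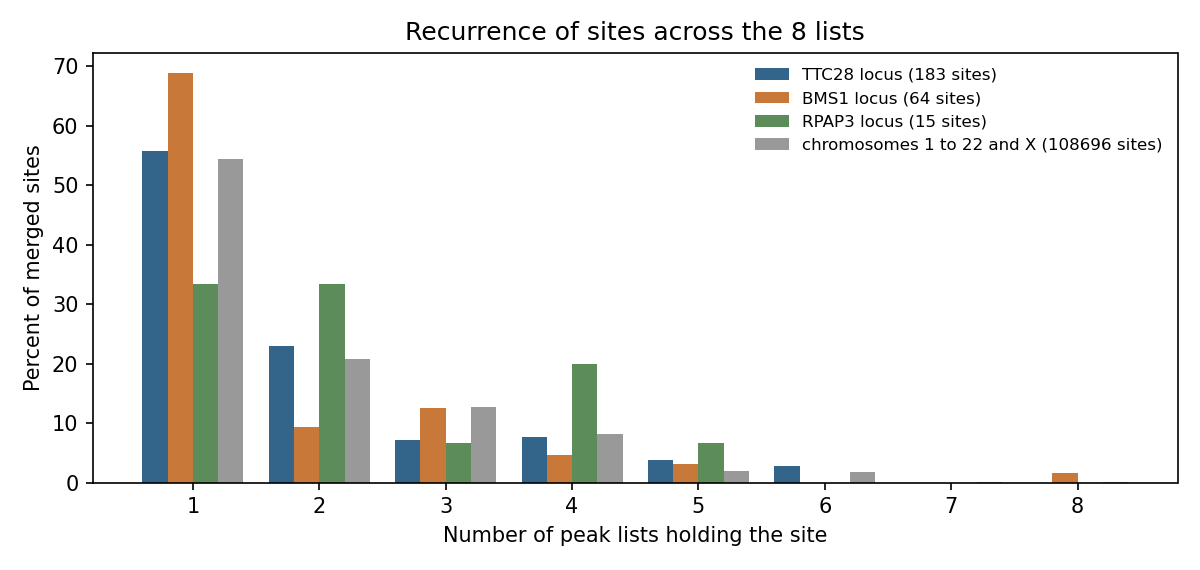
The percent of merged sites (y axis) is plotted by the number of lists that hold them (x axis) for each locus and for chromosomes 1 to 22 and X. Sites of 1 list are the largest class in the TTC28 and BMS1 loci and genome-wide, and at RPAP3 sites of 1 and of 2 lists are equally common (5 each).

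The lists that shared a site were then compared. Of the 183 TTC28 sites, 88 were held by FOXA2 lists alone, 15 by FOXA1 lists alone, 1 by FOXA3 lists alone and 16 by SOX2 or the fusion alone. FOXA1 and FOXA2 lists, in any form, met at 53 sites, and at 15 of these a FOXA3 list was present too. The most common single pattern was FOXA2dCTD alone, at 44 sites, followed by FOXA2 alone at 31. At BMS1 26 of 64 sites were of FOXA2 lists alone, 12 of FOXA1 lists alone and 11 of the fusion alone, and FOXA1 and FOXA2 lists met at 14. At RPAP3 they met at 7 of 15, while FOXA2 lists alone had 3. Genome-wide shares of these classes were not counted, and the loci were chosen by their FOXA2 peaks. The number of sites of FOXA2 lists alone can therefore not be read as a trait of these loci.

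Sites were also counted by the form of the protein. At TTC28 58 sites were held only by CTD-deleted forms among the FOXA lists and 42 only by full-length forms. For BMS1 the counts were 19 and 15 and for RPAP3 2 and 4. Shares of these classes over all sites were not counted, so the counts do not set these loci apart from the genome. A copied FOXA3 row counts here as a full-length form, which keeps its site out of the CTD-deleted class. The FOXA2dCTD list is also the longer one of its pair and its IDR limit was the stricter one, and the part of either in these counts was not tested.

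The most recurrent sites of the TTC28 locus were held by 6 lists as deposited, and without the copied FOXA3 rows only chr22:28594434-28596175 kept 6. Within the gene these were chr22:28590954-28592380, chr22:28594434-28596175, chr22:28231126-28232779 and chr22:28496555-28497804, and below it chr22:27860043-27861914 over PITPNB. At the first FOXA3dCTD had −log10 p values of 25.9 and 53.6, rank 76 of 6813. There FOXA2dCTD had 16.0 and 29.0 (rank 279) and FOXA2 13.6 and 6.09 (rank 1776), so both FOXA2 forms were present. FOXA1 had 17.4 and 6.77 and FOXA1dCTD 11.1 and 24.8 at the same place.

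The neighbouring site, chr22:28594434-28596175, 617 kb from the lower end of the gene, was held by both FOXA2 forms as well. Its FOXA2 peak had values of 10.2 and 11.0 (rank 325) and its FOXA2dCTD peak 9.14 and 4.25 (rank 13223). FOXA1 had 17.1 and 23.98 there, rank 188, and the fusion 4.19 and 3.06. At chr22:28231126-28232779 FOXA2dCTD had 10.8 and 14.5 and FOXA2 10.1 and 2.96. Ranks and −log10 p values from lists of different length and limit cannot show a change in binding.

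The strongest peaks that the FOXA2 pair shared in the TTC28 locus lay far from the marked peak. The strongest FOXA2 peak of the locus, chr22:27865231-27867115 over PITPNB, had values of 14.2 and 16.2, rank 101, and FOXA2dCTD had 26.6 and 22.1 there, rank 76. It lay 112 kb below TTC28. The second strongest FOXA2 peak, chr22:27860053-27861912, had 10.9 and 15.3. Both lists thus held a peak among the strongest of the locus over PITPNB.

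Beside the marked site, 7 further sites of the TTC28 locus with at least 4 lists lacked a peak of FOXA2 or of FOXA2dCTD. FOXA2 was absent at chr22:27965017-27966198, 12.3 kb below the gene over TTC28-AS1, an antisense RNA gene, where FOXA3dCTD reached 21.9 and 26.6. It was absent too at chr22:27802514-27803116 near MN1, at chr22:28112524-28114020 within TTC28, and at chr22:28822879-28823562, 22.5 kb from XBP1, a transcription factor gene of the unfolded protein response. FOXA2dCTD was absent at chr22:27975419-27976454, chr22:28353317-28355164 and chr22:28429841-28431256. As deposited, all 26 sites with 4 or more lists held at least 1 FOXA1 peak or FOXA1dCTD peak. Few sets of 4 lists lack both, and no genome-wide share was taken, so nothing is concluded from this. Without the copied FOXA3 rows 23 sites had 4 or more lists. Those at chr22:27802514-27803116, chr22:28822879-28823562 and chr22:28429841-28431256 then had fewer.

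Close neighbours of the marked TTC28 peak were weak. On its lower side FOXA2dCTD alone had peaks at 0.654, 5.97 and 23.7 kb, each with a strength of 2.95 or 2.96. On its upper side FOXA2dCTD alone had one at 1.08 kb with 3.00, FOXA2 alone one at 4.41 kb with 1.71, and FOXA1 alone one at 11.8 kb with 3.53. None of these 6 sites was held by a second list.

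At BMS1 the site over the gene start, chr10:42782342-42784565, was the one held by all 8 lists. By rank it lay within the strongest 7.79% of the FOXA1 list (rank 2925 of 37532) and 11.0% of the FOXA1dCTD list, and at 24.7% in FOXA2, 30.4% in FOXA2dCTD and 85.6% in SOX2 (rank 1177 of 1375). The −log10 p values were 3.00 and 7.47 in FOXA2 and 10.1 and 8.12 in FOXA1. FOXA2dCTD had 5.86 and 3.88, FOXA1dCTD 8.17 and 12.3, FOXA3dCTD 6.46 and 8.78, SOX2 3.58 and 5.84, and the fusion 5.86 and 3.86. Without the copied FOXA3 row 7 lists held it. At the site 31.9 kb upstream, in contrast, the FOXA2dCTD peak was the strongest of its list in the locus and FOXA2 had none.

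Among the other BMS1 sites, chr10:42607726-42608826 over ZNF33B was held by 5 lists. It carried the strongest FOXA2 peak of the locus, 7.91 and 10.5 at rank 786, and a FOXA2dCTD peak of 15.5 and 9.13. Sites of 4 lists lay at chr10:42656270-42657307, at chr10:42813981-42814860 within BMS1, and at chr10:43011784-43012840, and each of them combined both FOXA1 and both FOXA2 lists. The second strongest FOXA2 peak, chr10:43011804-43012478, had 5.08 and 7.10 and lay in the last of these. The third, chr10:42806261-42808116 within BMS1, had 4.95 and 8.41.

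The strongest FOXA1 peak and the strongest FOXA1dCTD peak near BMS1 lay where FOXA2 had no peak. FOXA1 was strongest at chr10:42866227-42868761, 32.7 kb past the end of the gene, with 23.3 and 23.8. FOXA1dCTD was strongest at chr10:42833823-42834560, at the 3′ end of BMS1, with 20.1 and 35.1. FOXA2dCTD had a peak at both sites, which are held by 3 lists each.

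The neighbours of the marked BMS1 peak had strengths of 2.57 to 6.22. Below it lay a FOXA2dCTD site at 13.1 kb with 3.50, a site of FOXA1 and FOXA1dCTD at 10.5 kb with 6.22, and a fusion site at 9.49 kb with 2.57. Above it came a FOXA1 site at 17.5 kb with 3.17, a site of FOXA1dCTD, FOXA2 and FOXA2dCTD at 25.0 kb with 3.53, and a FOXA1dCTD site at 27.6 kb with 5.19. Only 1 of these 6 sites, the one at 25.0 kb, held a FOXA2 peak.

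All 15 sites of the RPAP3 locus can be placed. Below the gene, beyond its 3′ end, were a site of FOXA1dCTD and FOXA2 at 107 kb, the marked site at 27.1 kb and the FOXA2dCTD site at 10.7 kb. A gap of 77.9 kb without a peak separated the first of these from the marked site. RPAP3 itself held 2 sites. One, chr12:47687767-47689047, had both FOXA1 and both FOXA2 lists, with 5.63 and 8.00 in FOXA2, 4.39 and 3.59 in FOXA2dCTD and 10.2 and 15.9 in FOXA1dCTD. The other, chr12:47694663-47695354, was of FOXA1dCTD alone with 6.95 and 6.94.

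Above RPAP3, on its 5′ side, 10 sites followed. A site of FOXA1, FOXA2 and FOXA2dCTD overlapped RPAP3-DT and ENDOU, an endoribonuclease gene. The site chr12:47758999-47759704 lay over SLC48A1, a heme transporter gene, and over a promoter of RAPGEF3, which encodes a cAMP-activated exchange factor. It was in both FOXA2 and both FOXA3 lists. FOXA2dCTD was at its strongest there for this locus, with 6.19 and 7.81. Another 3 sites over SLC48A1, all with a strength of 2.44 or less, were held by FOXA1, by FOXA1 with FOXA2, and by both FOXA2 lists.

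As deposited, the most recurrent site of the RPAP3 locus was chr12:47819937-47820556 at the start of HDAC7, a histone deacetylase gene. It was held by 5 lists, the copied FOXA3 row included. Without copied rows 0 sites of the locus had 5 lists and 3 had 4, this site and the marked site among them. The HDAC7 site had 7.14 and 7.35 in FOXA1 and 6.32 and 4.96 in FOXA2. FOXA2dCTD had 3.52 and 6.53 there, and FOXA3dCTD 7.02 and 13.5. The last 4 sites lay over VDR, the vitamin D receptor gene. One was of FOXA2 alone with a strength of 3.02, one of FOXA1 and FOXA2 with 5.30, one of the fusion alone with 3.20, and one of both FOXA1 lists with 2.69. Full-length FOXA2 was thus present at 10 sites of the locus and FOXA2dCTD at 6.

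**Figure D5:**
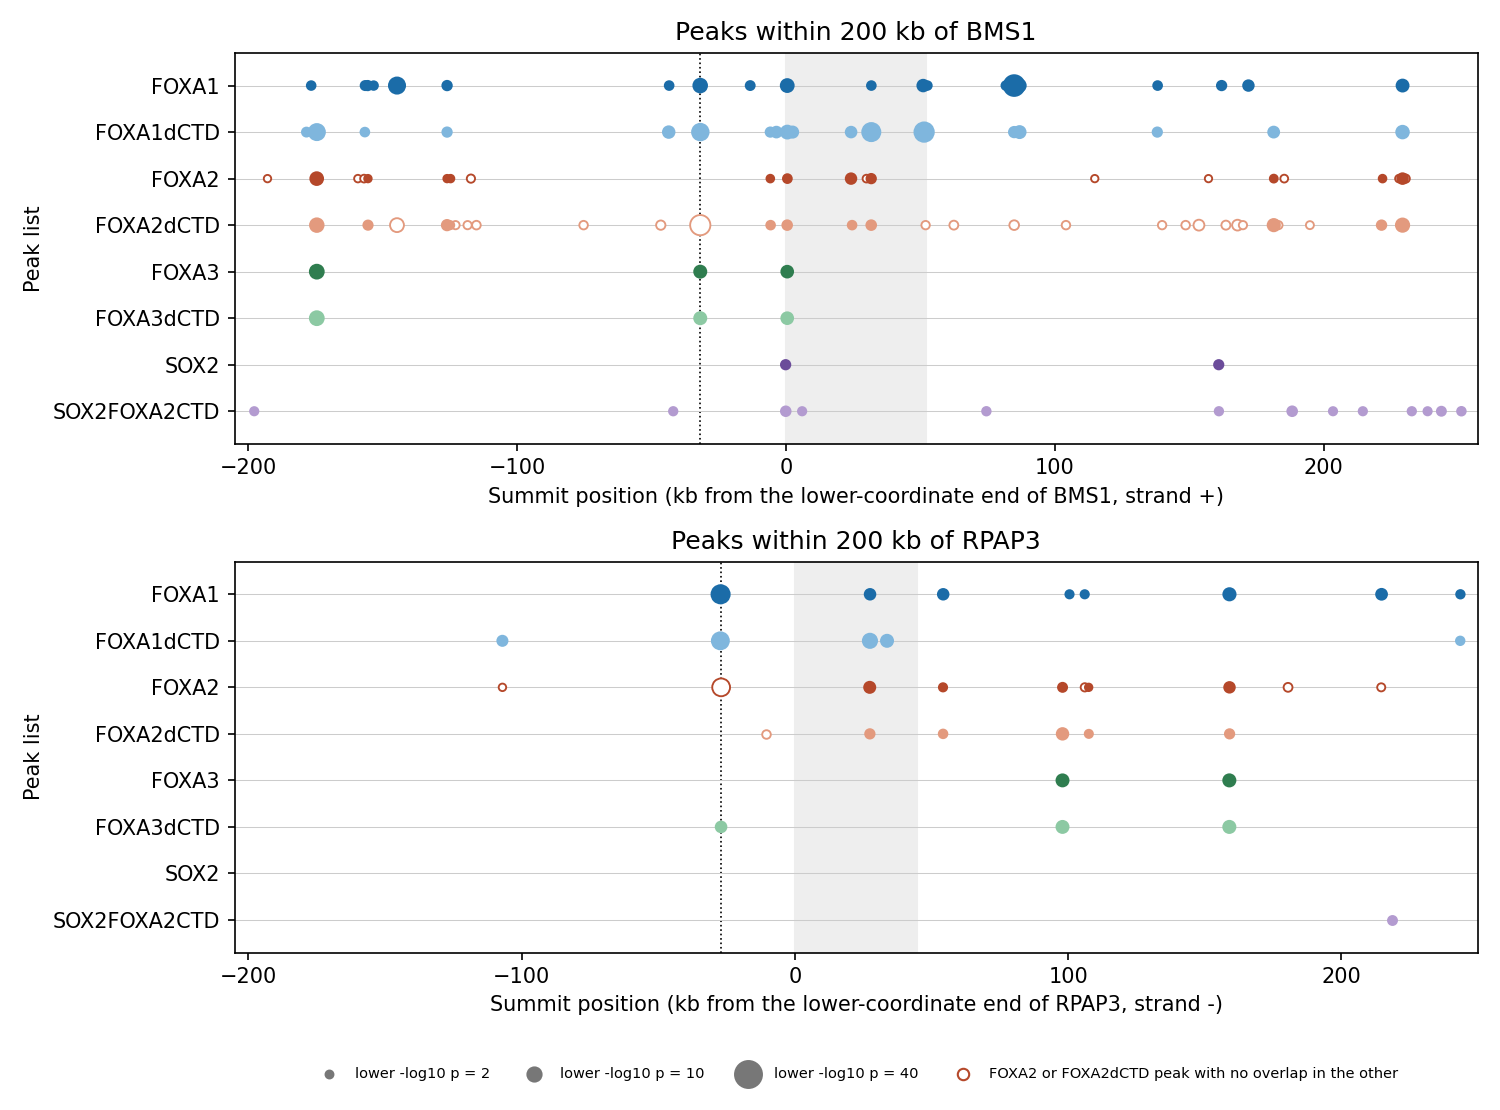
Summits of all peaks of the BMS1 locus (top, 111 peaks) and the RPAP3 locus (bottom, 35 peaks) are placed by distance in kb from the lower-coordinate end of the gene (x axis) in each list (y axis), drawn as in the map of the TTC28 locus. The marked BMS1 peak (dotted line) is open in FOXA2dCTD and empty in FOXA2, the marked RPAP3 peak is open in FOXA2 and empty in FOXA2dCTD, and only the BMS1 start has a point in every list.

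Sites of SOX2 and the fusion were set against the FOXA peaks. In the TTC28 locus 28 sites held a fusion peak and 1 a SOX2 peak, and 16 of these 29 had no FOXA peak. In the BMS1 locus 11 of 13 sites with a fusion peak had none, and the other two also held the 2 SOX2 peaks of that locus, at the BMS1 start and at chr10:42943450-42945043. Of the 28 fusion sites at TTC28, 15 had no FOXA peak. The single SOX2 peak of the TTC28 locus, chr22:28170893-28171698, had values of 6.20 and 3.45 and overlapped no other list. Genome-wide 62.3% of fusion peaks overlapped no FOXA peak.

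The SOX2 and fusion peaks of the loci had strengths of at most 4.13. The strongest fusion peaks were chr22:27800640-27802375 over MN1, with 4.13 and 7.45, chr22:28142170-28143499 within TTC28, with 15.3 and 4.13, and chr10:42970449-42971576 beyond BMS1, with 3.94 and 7.43. Fusion sites came in a run beyond the 3′ side of BMS1, where 7 lay between chr10:42970449 and chr10:43034089 without a FOXA peak. At RPAP3 the one fusion peak was the VDR site, and SOX2 had 0 peaks, which allows up to 3 peaks by counting error alone. None of the 3 marked sites held a SOX2 or fusion peak.

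Of 9 other genes of the loci with a promoter entry, 6 had a promoter under a peak of at least 1 list. Of all protein-coding genes with such an entry 18.5% had one, but these loci were chosen by peaks. Neighbouring promoters can lie under the same peak. CCDC117 and HSCB, an iron-sulfur cluster co-chaperone gene, each had peaks of 1 list over a promoter, FOXA1 for CCDC117 and the fusion for HSCB. The promoters of PITPNB and XBP1 had none, with the nearest peaks 240 and 7068 bases away. RAPGEF3 and HDAC7 each had a promoter under 4 lists, a copied FOXA3 row included. As deposited, 304 of the 22132 promoters had 4 lists or more.

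BMS1 and RPAP3 were also counted with the genes of their complexes, from lists set for this purpose. Of 14 small-subunit processome genes 3 had a peak over a promoter: BMS1 in 7 lists, NOP14 in 3 and WDR43 in 1. That is 21.4%, beside 18.5% of all protein-coding genes with a promoter entry. BMS1 was itself chosen by its peaks, and without it 2 of 13, or 15.4%, had one. More FOXA2dCTD than FOXA2 peaks lay near 7 of the 14 (6 of 13 without BMS1), and near 51.3% of all genes. WDR43 had 52.9 FOXA2dCTD and 28.7 FOXA2 peaks per Mb. Of the 11 genes of the R2TP complex and its partners 9 had a promoter entry and 0 had a promoter peak. FOXA2dCTD peaks outnumbered FOXA2 peaks near 3 of the 11, PIH1D1, RUVBL2 and UXT, beside the same 51.3%. RPAP3 was itself chosen by its peaks, and without it the count was 3 of 10. Both lists had equal densities near RUVBL1, URI1, PFDN2, PFDN6, PDRG1 and DNAAF10, and FOXA2 had more peaks near RPAP3 and POLR2E.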

How the data were processed

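Flag ChIP-seq was analysed from 10 deposited peak lists: 1 combined list for each of 8 factors, and lists of the first replicate for SOX2 and the fusion. A further 4 were copies and were not used. The submitters' processing notes name Trim Galore, Bowtie2 2.4.4, SAMtools 0.1.18, MACS2, deepTools 2.4.1, FastQC 0.10.1 and build hg38, with no role or order. The IDR program's settings and the control are not given in the sources used here. The deposited score is 125 times the log2 of 1 over the IDR, at most 1000. The −log10 p values per replicate and the fold enrichment (a ratio) of the first-replicate lists are as the authors deposited them. They describe and rank peaks within a list. Where values of several lists stand side by side, no change is read from them.

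Peaks were assigned to a locus by summit, joined by an overlap of 1 bp and ranked by strength with Python 3.11.15, pandas 2.3.3 and numpy 2.4.6, and the joining was tested on simulated data with known answers. Figures used matplotlib 3.10.9 and intervals scipy 1.17.1. Gene spans and promoters (250 bases before to 50 after the start) came from RefSeq GRCh38, in which all 3 members and all 25 partner genes were matched. The spans carry no exons, so exon and intron were not told apart, and motifs around summits were not counted because no genome sequence was used here.

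Peaks were named by rule: in each locus the strongest peak that each FOXA2 list holds without the other, the 3 strongest of each FOXA2 list, the 3 sites of most lists, the SOX2 and fusion sites (mostly given as counts) and the next 3 sites on each side of the marked peak. Further sites of the map and strongest FOXA1 peaks were named after their values were seen. Members and lists were chosen with earlier results of these data known. Each factor has 1 combined list, so no test was run. The Wilson 95% intervals cover counting error only, and depth is unknown.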

Additional observations from a re-analysis of the deposited data

Results flagged for a closer look

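The comparisons above do not use the first-replicate lists of SOX2 and the fusion. These held more than 3 peaks, the limit used to flag them, in every locus except SOX2 at RPAP3. They are far longer than the combined lists, with 13788 peaks against 1375 for SOX2 and 42289 against 7895 for the fusion. Counts were thus higher over the whole lists too, and whether the rise in these loci differs from that was not tested. In the TTC28 locus the SOX2 list of the first replicate had 59 peaks, against 1 in the combined list, and that of the fusion had 59, against 28. Of these, 21 in each list overlapped a FOXA peak. The share over all peaks of the first-replicate lists was not counted, so nothing is concluded from this. The TTC28 density of the SOX2 list was 53.5 per Mb, with 4.55 per Mb over chromosomes 1 to 22 and X, and its authors' fold enrichment there had a median of 2.92 and a highest value of 6.59.

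In the BMS1 locus the first-replicate lists had 18 peaks for SOX2 and 20 for the fusion, and the combined lists 2 and 13. In the RPAP3 locus the fusion had 8 and SOX2 1. None of the first-replicate peaks of SOX2 or the fusion overlapped the marked peak of any of the 3 loci. Whether the second replicate held these peaks was not tested, since no list of it alone was used here.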

How the results depend on the processing

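Of 90 values under other settings for 15 results, 66 stayed close to the main value (a count within 1.5 times it, a share within its interval) and 24 moved. The number of other lists at the marked peaks was 3 at TTC28, 4 at BMS1 and 3 at RPAP3. It was 3 at BMS1 without the copied FOXA3 rows, a setting chosen after seeing the data. At an IDR of 0.01 the marked RPAP3 peak itself (0.0277) is lost, so its count there says nothing about stability. An IDR of at most 0.01 left 43, 15 and 6 sites at TTC28, BMS1 and RPAP3, raised the share of BMS1 sites held by 2 or more lists to 46.7%, left 0 FOXA2 peaks at all 3 loci (no FOXA2 peak meets it), and so 11 FOXA2dCTD peaks without a partner at TTC28 and 5 at BMS1. A window of 100 kb gave 26 sites at BMS1 and 9 at RPAP3, with 2 FOXA2 and 9 FOXA2dCTD peaks without a partner at BMS1 and 2 FOXA2 peaks at RPAP3. With 500 kb there were 127 and 35 sites, 19 and 45 such peaks at BMS1 and 6 of FOXA2dCTD at RPAP3. Both follow from the length covered. Requiring 50% overlap of both peaks lowered the recurrent share at TTC28 to 33.0% and gave 2 FOXA2dCTD peaks without a partner at RPAP3, and summits within 200 bp gave 34.3% at TTC28. With both FOXA2 lists held to an IDR of 0.25, TTC28 had 31 FOXA2 peaks without a partner and RPAP3 had 2 of FOXA2dCTD. The marked peaks met that limit. No paired analysis was possible because each factor has 1 combined list.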
